A study of Mus musculus with 47 samples.

Results

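Aminoacyl-tRNA synthetases, the enzymes that attach each amino acid to its transfer RNA, were followed through 36 named genes in the retinas of young and aged mice across the day. The members were chosen by name: 20 genes for enzymes of the cytosol and 16 for enzymes of the mitochondrion, matched by symbol to Ensembl identifiers. All 36 were found among the 57180 genes of the file, and all 36 passed the filter on low values. The mice were C57BL/6, an inbred strain, kept in alternating 12 h of light and 12 h of dark, with ages of 6 weeks in the young group and 20 months in the aged group. They carried no stated genetic change and received no stated treatment. Right eyes were collected every 4 h at 6 zeitgeber times (ZT, hours from lights on), of which ZT2, ZT6 and ZT10 fall in the light phase and the later 3 in the dark phase. Retinas were dissected under dim red light after the front of the eye had been cut away, and polyadenylated RNA was sequenced. Each age and time held 4 libraries from separate mice, except aged ZT18 with 3, which made 24 young and 23 aged libraries. The comparisons asked whether transcript levels differed with age, whether they cycled over 24 h, and whether the cycle differed with age.

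Each synthetase recognises an amino acid and the matching tRNAs, joins them at the cost of ATP, and so sets the accuracy of translation. Cytosolic and mitochondrial enzymes mostly come from separate nuclear genes, and the mitochondrial enzymes serve the few proteins that mitochondria make themselves, all of them parts of the respiratory chain and ATP synthase on which photoreceptors rely. Gars (glycine) and Kars (lysine) are exceptions whose genes give both enzymes. Eprs carries the glutamate and proline activities in a single protein, and Farsa and Farsb are the subunits of the cytosolic phenylalanine enzyme. Several cytosolic enzymes sit in a multisynthetase complex held together by the scaffold proteins Aimp1, Aimp2 and Eef1e1. Many cytosolic synthetase genes are known targets of ATF4, the transcription factor of the amino acid and stress response.

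The steps between values imply libraries of 32.0 to 55.5 M reads (medians 37.2 M for young and 37.0 M for aged mice). The lowest read count of any member in any library was 125, for Sars2 in aged ZT6 replicate 3. The 15 markers of retinal cells summed to between 12301 and 20262 RPKM (reads per kilobase of exon per M reads) in every library. Young ZT10 replicate 4 and aged ZT6 replicate 3 stood apart. Their members differed from the other libraries of the same group by a median of 0.34 and 0.47 on the log2 scale, against at most 0.18 in any other library. In the first, Pars2 was 0.77 above and Dars 1.32 below its group mates on that scale. In the second, Lars2 was 1.35 above and Sars2 1.81 below. Of the 36 members, 31 had their lowest or highest value of all in one of these libraries, so results are given with and without them where they matter. Nothing in whole retina separates fewer cells of a type from less RNA per cell.

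Cytosolic synthetase transcripts were more abundant than mitochondrial ones. Over all 47 libraries the mean level of the 20 cytosolic genes ran from 4.43 RPKM (Cars, cysteine) to 37.8 RPKM (Gars), with a median of 13.4 RPKM. The 16 mitochondrial genes ran from 1.00 RPKM (Nars2, asparagine) to 9.01 RPKM (Rars2, arginine), with a median of 3.22 RPKM. RPKM values are divided by exon length, so levels are compared between genes per length, and that length was 2447 bases for Hars and 18102 bases for Eprs, whose annotated exons include long alternative forms.

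The highest levels belonged to Gars, Nars (asparagine, 36.1 RPKM), Sars (serine, 28.9 RPKM), Wars (tryptophan, 27.9 RPKM) and Aars (alanine, 26.9 RPKM). Neighbours in that order mostly overlapped. Gars exceeded Nars in 30 of 47 libraries, Sars exceeded Wars in 31, and Wars exceeded Aars in 32, whereas Nars exceeded Sars in all 47. Hars (histidine, 22.6 RPKM), Kars (22.3 RPKM), Mars1 (methionine, 21.6 RPKM) and Farsb (20.99 RPKM) formed a next tier within which each exceeded the following gene in only 28 to 30 libraries. Farsb then stood above Yars (tyrosine, 13.6 RPKM) in all 47. Farsb was also above Farsa (13.3 RPKM), its partner subunit, in 46 of 47 libraries, with a median ratio of 1.55. Nars2, the lowest member, was at 1.24 ± 0.16 RPKM (SD, n = 4) in its highest group, young ZT6, where the 4 libraries read 1.06, 1.44, 1.26 and 1.2 RPKM. In its lowest group, aged ZT2, the libraries read 0.854, 1.00, 0.806 and 0.777 RPKM, all below the young ZT6 values. These groups were picked as the highest and lowest of the 12 by mean, so their separation is no test of a difference. In the tests below, Nars2 was called neither for age nor for rhythm over both ages (limma adjusted p = 0.657 and 0.194).

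**Figure D1:**
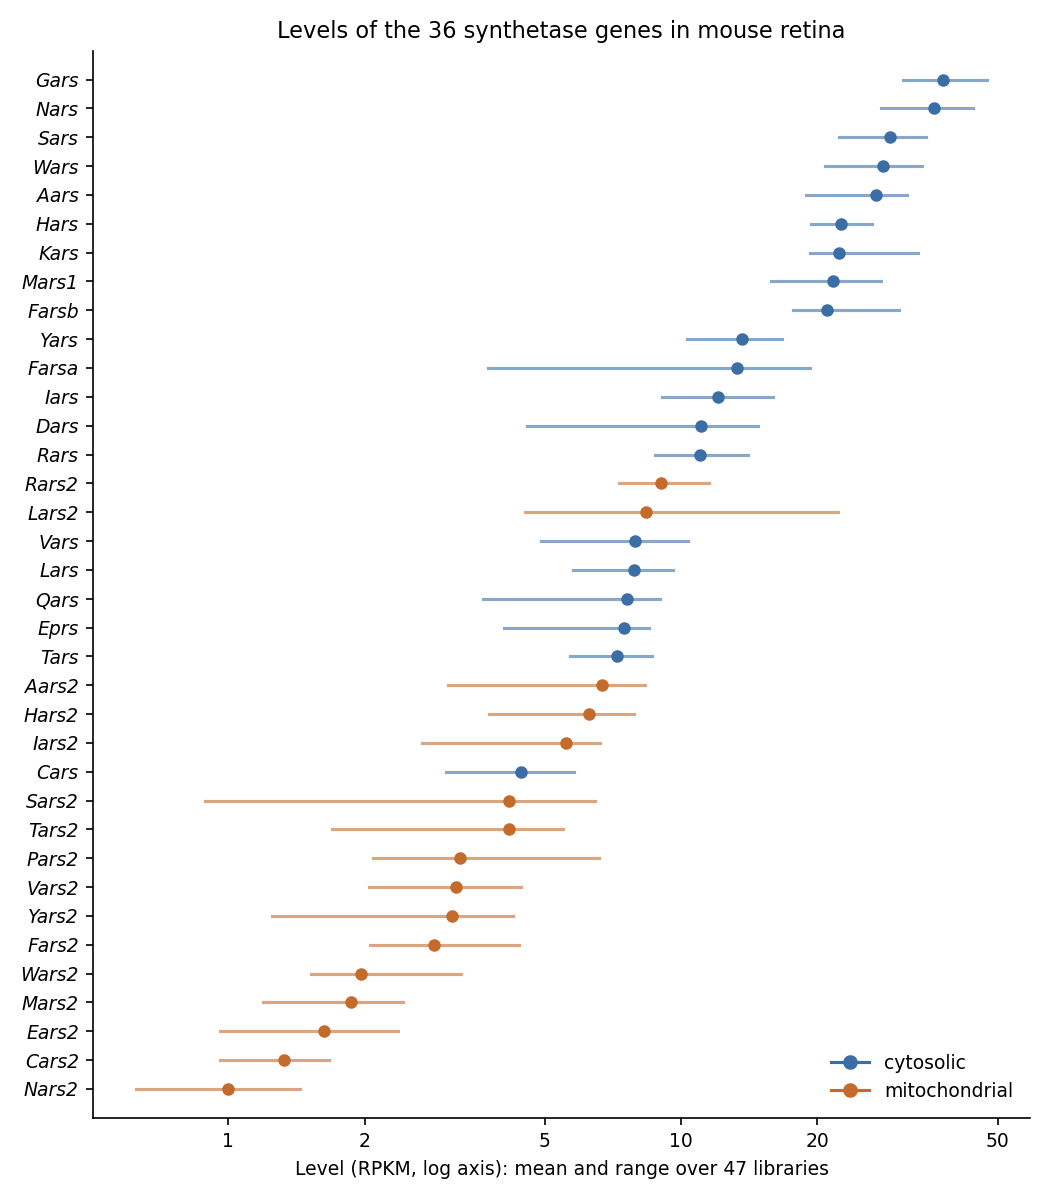
Mean level (point) and lowest to highest library (line) of each synthetase gene over 47 libraries, in RPKM on a log axis, cytosolic genes in blue and mitochondrial genes in orange. Gars leads at 37.8 RPKM and Nars2 is lowest at 1.00 RPKM; Rars2 and Lars2 are the highest of the mitochondrial genes.

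When each mitochondrial gene was set against the cytosolic gene for the same amino acid, the cytosolic transcript was higher in all 47 libraries in 13 of 16 pairings. The ratio was widest for asparagine, where Nars exceeded Nars2 by a median of 37.1-fold (range 24.6 to 50.1). It was 14.5-fold for tryptophan (Wars over Wars2) and 11.4-fold for methionine (Mars1 over Mars2). The arginine and leucine enzymes were nearly balanced. Rars exceeded Rars2 by a median of 1.198-fold and in 45 of 47 libraries. Lars exceeded Lars2 in only 24 of 47, with a median ratio of 1.02. The remaining exception was the proline activity, for which Eprs exceeded Pars2 in 46 libraries and was below it in young ZT10 replicate 4.

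Age moved few of these genes, a share close to that of all genes tested. Of the 36 members, 1 rose in aged retinas over all times (Gars), where 2.41% of all 15321 genes tested rose, and 0 fell, where 1.83% fell. These calls come from limma at a Benjamini-Hochberg adjusted p under 0.05, with time as a factor, on log2(RPKM + 0.5). None of the 36 passed with a fold over 1.5, a size reached by 0.49% of all genes. The aged minus young log2 difference ran from -0.15 (Vars2, valine, mitochondrial) to 0.12 (Gars), and 95% intervals for single members reached no lower than -0.27 and no higher than 0.27, which correspond to folds of 0.8293 and 1.21. Of the members, 13 had a difference above 0 and 23 below, with a median of -0.035 beside -0.019 over all genes tested. The median was -0.024 for the cytosolic genes and -0.058 for the mitochondrial genes.

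At an unadjusted limma p under 0.05, 2 members were higher in aged (Gars and Rars) and 4 lower (Vars2, Aars2, Cars and Ears2), where 7.06% and 8.61% of all genes were. Rars, an arginine enzyme of the multisynthetase complex, was higher in aged at all 6 times, by 0.11 ± 0.04 (SE) on the log2 scale (adjusted p = 0.0777). Under median-ratio scaling and quantile normalization it passed, with adjusted p of 0.042 and 0.019 and 2.49% and 2.94% of all genes called higher (1.65% and 1.91% lower), and it also passed when young ZT14 replicate 2, young ZT22 replicate 4 or aged ZT2 replicate 3 was left out. Vars2 was 0.15 ± 0.05 lower in aged, with an adjusted p of 0.0908. It passed as lower when aged ZT18 replicate 3 or aged ZT22 replicate 2 was left out. Without both libraries that stood apart, 2 members were higher (Gars and Fars2, the mitochondrial phenylalanine enzyme, 0.11 with adjusted p = 0.027) and 2 lower (Dars, aspartate, -0.096 with adjusted p = 0.039, and Ears2, glutamate, mitochondrial, -0.18 with adjusted p = 0.010). All genes moved likewise in that fit, with 7.24% called higher and 9.29% called lower. Ears2 alone was added as lower when only young ZT10 replicate 4 was left out.

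**Figure D2:**
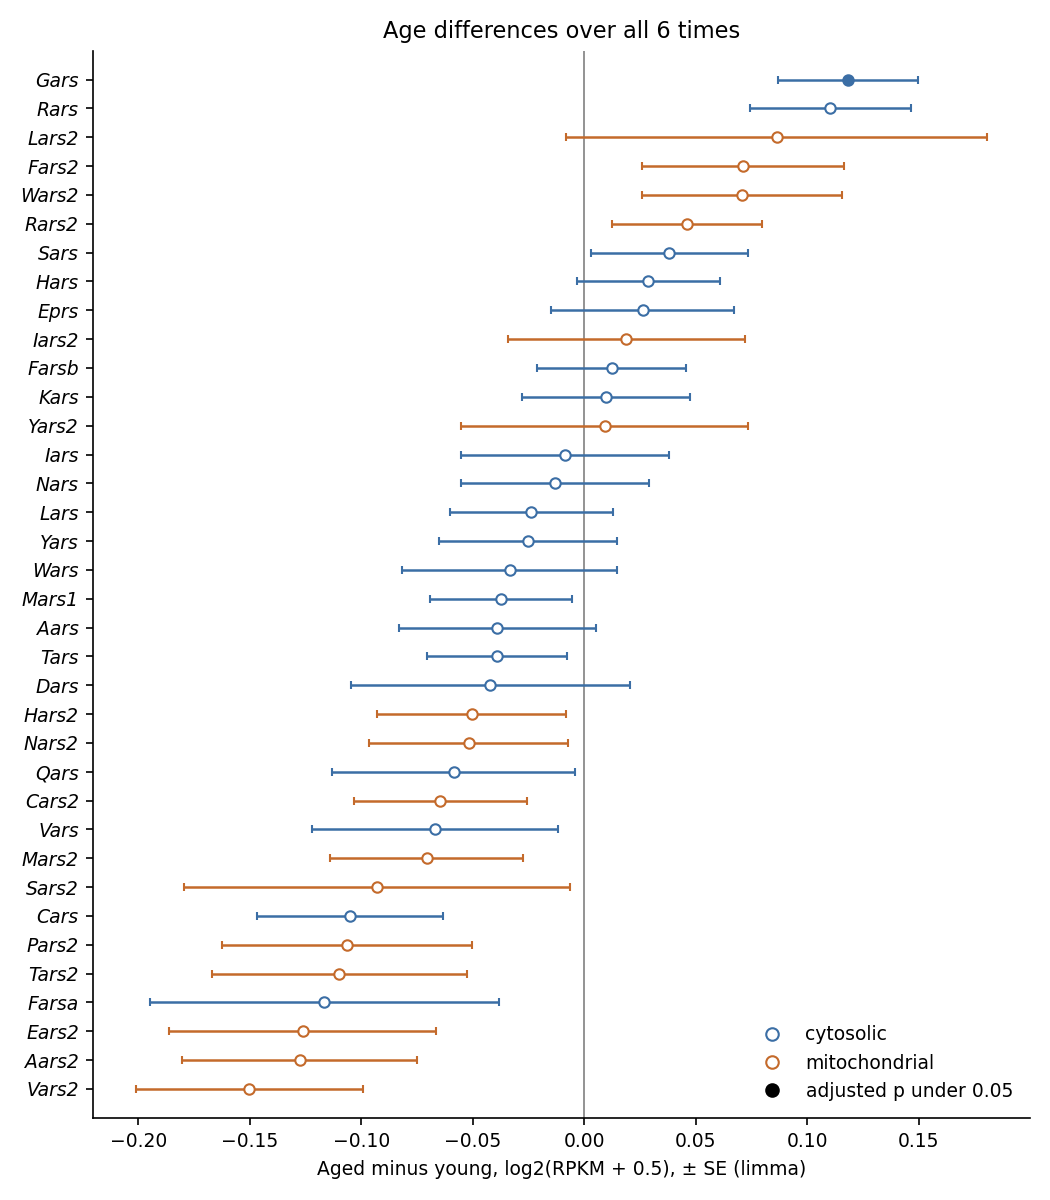
Aged minus young difference of each member over all 6 times, in log2(RPKM + 0.5), with its SE from limma; blue is cytosolic and orange is mitochondrial. The filled point, Gars at 0.12, is the member called at an adjusted p under 0.05, and Vars2 at -0.15 lies at the other end.

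Gars (ENSMUSG00000029777), the glycine enzyme, in which inherited mutations cause a peripheral neuropathy, was the member that rose with age. The 24 young libraries averaged 36.1 ± 2.17 RPKM (SD, median 36.1) and the 23 aged libraries 39.5 ± 4.28 RPKM (SD, median 39.8). Aged exceeded young by 0.12 ± 0.03 (SE) on the log2 scale, a fold of 1.09 (limma adjusted p = 0.0169). The call held when any single library was left out, with adjusted p from 0.00541 to 0.0308. It was lost with the mean levels of retinal pigment epithelium (RPE) and lens markers as covariates (0.11, adjusted p = 0.071).

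The ages lay apart at the middle times and overlapped at the others, although the interaction of age and time was not called for Gars (limma adjusted p = 0.838). At ZT2 the 4 young libraries read 40.4, 36.3, 37.3 and 39.0 RPKM and the 4 aged libraries 41.4, 39.1, 34.7 and 33.8 RPKM, and the ages overlapped. At ZT6 the young values were 39.5, 36.2, 38.1 and 38.0 RPKM and the aged values 41.5, 46.1, 40.4 and 40.7 RPKM, so every aged library was above every young one. At ZT10 young libraries read 38.7, 36.3, 37.1 and 35.6 RPKM and aged libraries 47.4, 45.2, 42.7 and 43.3 RPKM. The ages again did not overlap at ZT10, and the aged group there held the highest Gars value of any library. At ZT14 the young values were 31.2, 36.3, 34.9 and 34.3 RPKM and the aged values 39.0, 42.8, 40.6 and 38.3 RPKM, also without overlap. At ZT18 young libraries read 33.1, 34.8, 35.5 and 34.5 RPKM and the 3 aged libraries 39.8, 35.5 and 39.6 RPKM. At ZT22 the young values were 35.8, 34.3, 33.5 and 36.1 RPKM and the aged values 35.7, 30.9, 32.4 and 37.0 RPKM. By that time the ages overlapped fully, as they had at ZT2.

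Contrasted time by time in limma, the aged minus young log2 difference of Gars was largest at ZT10 (0.27 ± 0.06, SE). It was 0.15 for ZT6, 0.23 for ZT14 and 0.15 for ZT18, and it was -0.042 for ZT2 and -0.041 for ZT22. The ZT10 difference passed (adjusted p = 0.0352), where 0.392% of all genes were higher at that time. That call was lost when any of the ZT10 libraries other than young replicate 1 was left out (adjusted p up to 0.188) and under median-ratio scaling (0.379). Without both libraries that stood apart the adjusted p was 0.056 at ZT10, where 0.463% of genes were higher, and Gars passed at ZT14 instead, where 0.796% of genes were higher in that fit.

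**Figure D3:**
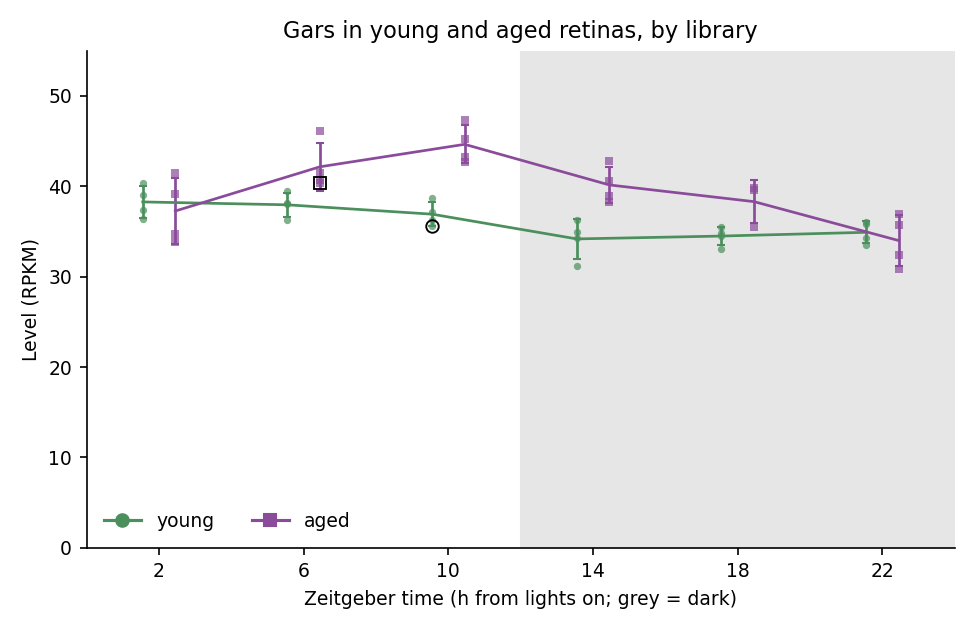
Gars level in RPKM by zeitgeber time, with each library as a point, group means joined and bars of SD; young in green circles, aged in purple squares, dark hours in grey, and the libraries that stood apart ringed in black. At ZT6, ZT10 and ZT14 every aged library lies above every young one, and at ZT2 and ZT22 the ages overlap.

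The Gars promoter is shown because it holds the letters that ATF4 and its C/EBP partners bind, in a gene that moved with age. It comes from RefSeq (build GRCm38.p6) and covers 250 bases before the gene start, read 5′ to 3′ on the gene's strand. The capitals mark the match to TGATGNAA, the C/EBP-ATF response element, found here on the opposite strand 30 bases before the start.
Gars, chr6:55037751-55038000, plus strand: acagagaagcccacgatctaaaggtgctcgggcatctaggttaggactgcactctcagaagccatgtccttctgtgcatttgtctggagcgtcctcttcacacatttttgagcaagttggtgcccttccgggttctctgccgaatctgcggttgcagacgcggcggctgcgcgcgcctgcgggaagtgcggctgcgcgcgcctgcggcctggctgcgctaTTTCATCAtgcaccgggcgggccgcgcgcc

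Such a match stood in 5 of the 27 members for which RefSeq promoters (250 bases before to 50 after the start) were at hand, or 18.5%, beside 3.97% of all 32851 promoters. Both strands were searched. For this and the other motifs, members were counted once per gene and all promoters once per entry, so the shares are not of like units. The 5 are all cytosolic genes (Aars, Gars, Iars, Tars and Yars). The matches in Gars, Iars, Tars and Yars are printed with 10 bases to either side to compare their setting, and capitals again mark the match; TTGCATCA and TTTCATCA are matches read from the other strand.
Yars, chr4:129189896-129189923, plus strand, motif beginning 3 bases after the start: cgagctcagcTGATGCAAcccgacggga
Gars, chr6:55037961-55037988, plus strand, motif beginning 30 bases before the start: ggctgcgctaTTTCATCAtgcaccgggc
Iars, chr13:49682127-49682154, plus strand, motif beginning 7 bases after the start: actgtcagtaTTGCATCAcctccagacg
Tars, chr15:11399656-11399683, minus strand, motif beginning 15 bases before the start: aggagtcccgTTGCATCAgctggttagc

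Of these 5 genes, Gars passed for age and for rhythm, and the others passed neither. Under median-ratio scaling Iars and Yars were called rhythmic and Gars was not, and without both libraries that stood apart Aars and Tars were called as well as Gars. Their aged minus young log2 differences were -0.039 for Aars, -0.0086 for Iars, -0.039 for Tars and -0.025 for Yars. A match is only a run of letters in this window. The palindrome CACGTG, the E-box, was found in 5 of 27 members (Aars, Ears2, Farsb, Iars and Tars, 18.5%) beside 7.15% of all promoters, and it does not overlap the element above in any of them. The cyclic AMP element TGACGTCA was in 0 of 27 beside 1.79%.

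Among all 12 synthetase genes listed as known ATF4 targets, 1 rose with age (Gars), beside 2.41% of all genes, and the median log2 difference was -0.024 beside -0.019 over all genes. Other known ATF4 targets were read from a list of 23, of which 20 were tested. Atf3, a stress-induced transcription factor, rose with age by 0.49 ± 0.07 (SE) on the log2 scale, from 4.30 to 6.14 RPKM. Shmt2, the mitochondrial enzyme that makes glycine from serine, fell by 0.36 ± 0.08, from 10.5 to 8.20 RPKM. The other 18 did not pass for age.

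Single times added 3 mitochondrial genes. At ZT6, Aars2 (alanine), Tars2 (threonine) and Vars2 were lower in aged, where 2.45% of all genes were lower, and no member was higher, where 0.666% were. Aars2 read 7.21, 7.55, 8.31 and 7.41 RPKM in young and 6.2, 6.59, 3.06 and 5.9 RPKM in aged, a log2 difference of -0.50 ± 0.11 (SE, adjusted p = 0.0119). Tars2 read 4.29, 4.83, 4.99 and 4.7 RPKM in young and 3.83, 3.93, 1.7 and 4.12 RPKM in aged (-0.48 ± 0.13, adjusted p = 0.0326). Vars2 read 3.82, 4.44, 4.41 and 4.21 RPKM in young and 3.61, 3.03, 2.05 and 3.39 RPKM in aged (-0.44 ± 0.11, adjusted p = 0.0238). For all 3 genes every aged library lay below every young one, and the lowest was aged ZT6 replicate 3, which stood apart.

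Without aged ZT6 replicate 3 none of the 3 passed, and the differences were -0.27 for Aars2, -0.22 for Tars2 and -0.30 for Vars2. Without young ZT6 replicate 3 none passed either, and without young ZT6 replicate 2 or 4 only Aars2 did. Leaving out aged ZT6 replicate 2 or 4 raised the count in either direction to 6 and 9 members. The shares of all genes in those fits are not given here. Without aged replicate 2, Farsa, Hars2 and Sars2 were added. Without aged replicate 4, Lars2, Vars and Wars2 were added as well. Of these, Lars2 and Wars2 were higher in aged at ZT6 with all libraries in (0.54 and 0.28). With both libraries that stood apart left out, Aars2 passed alone (adjusted p = 0.039), where 0.822% of genes were lower. It also passed alone under median-ratio scaling (0.92% of genes lower) and quantile normalization (1.22%).

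At ZT2, ZT14, ZT18 and ZT22 limma called 0 of 36 members in either direction. Over all genes, 0.137% were higher and 0.00653% lower at ZT2, 0.222% and 0.0261% at ZT14, 0.222% and 0.0326% at ZT18, and 0.163% and 0.00653% at ZT22. At an unadjusted p under 0.05 there were 3, 2, 1 and 1 members at these times, beside 4.47%, 5.46%, 3.58% and 4.13% of all genes, and limma voom on reads recovered from the values called 0 at each. At ZT6 and ZT10 the unadjusted counts were 13 and 2 of 36 members, beside 19.8% and 12.6% of all genes. The interaction of age and time was called for 0 of 36 members and 0% of all genes. At an unadjusted p under 0.05 it held 4 members (Gars, Aars2, Vars2 and Mars2), where 4.8% of genes did, and limma voom called 0.

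Daily cycling was common. A 24 h cosine shared by both ages was called in 13 of 36 members, a share of members close to the 30.2% of all genes called. The 13 were 6 cytosolic genes (Farsb, Gars, Lars, Mars1, Rars and Vars) and 7 mitochondrial genes (Ears2, Fars2, Iars2, Mars2, Pars2, Rars2 and Vars2). Of them, 12 had a fitted peak in the light, between ZT4.8 for Lars and ZT10.5 for Ears2, and Mars1 peaked in the dark, at ZT19.0. Over all rhythmic genes 67.8% peaked between ZT0 and ZT12. The tally of dark peaks depended on the scaling. Under median-ratio scaling 14 members were called (26.6% of all genes), 9 with light peaks and 5 with dark peaks (Eprs, Hars2, Iars, Mars1 and Yars). Under quantile normalization 13 were called (27.1%), 10 with light peaks and 3 with dark peaks (Eprs, Hars2 and Mars1). The shares of light peaks over all rhythmic genes under these scalings are not given here. The factors of median-ratio scaling ran from 1.04 to 1.11 in young ZT6 libraries and from 0.96 to 0.98 in young ZT18 libraries. In aged libraries they overlapped, from 0.88 to 1.06 at ZT6 and from 0.93 to 1.01 at ZT18. Hars2 was also added by a pseudocount of 1, the filter at 1 RPKM, the replicate block and limma voom. Amplitudes, which are the distance from the mean to the peak on the log2(RPKM + 0.5) scale, had a median of 0.086 over the 36 members beside 0.106 over all genes. They were 0.049 for the cytosolic genes and 0.097 for the mitochondrial genes.

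Of the 13 calls, 11 held when any single library was left out, and those of Iars2 (isoleucine, mitochondrial) and Vars (valine, cytosolic) did not. Ears2 was lost under median-ratio scaling (adjusted p = 0.0515) and quantile normalization (0.144), Farsb under median-ratio scaling (0.160), and Fars2 under quantile normalization (0.304). Without both libraries that stood apart, limma called 25 of 36 members, where 53.4% of all genes were called. These included all 13, and 23 of the 25 peaked in the light. The share of light peaks over all rhythmic genes in that fit is not given here, so this tally is not set against it. Genes without a call reached amplitudes of 0.104 (Tars2) and 0.093 (Farsa). Both were called when aged ZT6 replicate 3 alone was left out, where 38.3% of all genes were called. Tars2 was also called in the young fit (limma adjusted p = 0.0032). A missing call therefore does not show that a member did not cycle.

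**Figure D4:**
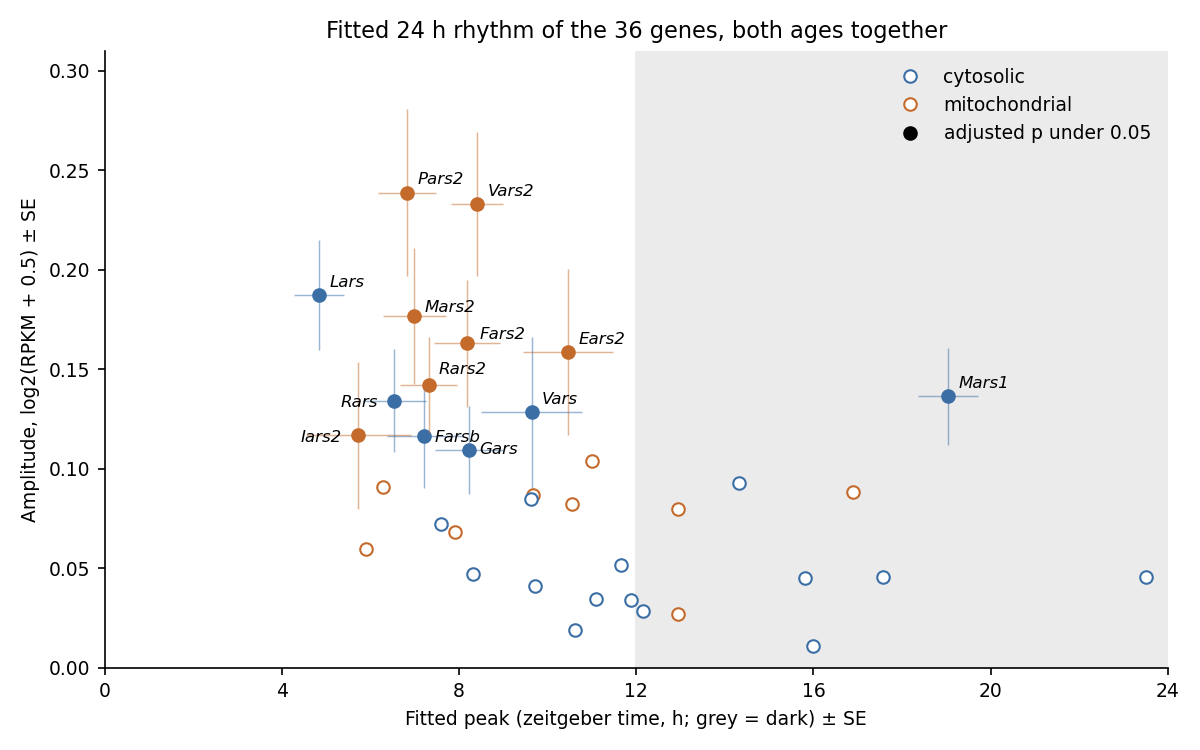
Fitted peak time and amplitude of the shared 24 h cosine for each of the 36 members, with SE for those called; filled points passed an adjusted p under 0.05, blue is cytosolic, orange is mitochondrial and the dark hours are grey. The called genes gather between ZT4.8 and ZT10.5, led in amplitude by Pars2 and Vars2, and Mars1 is the called gene in the dark, at ZT19.0; under median-ratio scaling 5 called members peaked in the dark.

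Among mitochondrial genes, the largest amplitudes belonged to Pars2 (proline) and Vars2. Vars2 (ENSMUSG00000038838) read 3.82, 4.44, 4.41 and 4.21 RPKM at young ZT6 and 2.42, 2.57, 2.67 and 2.13 RPKM at young ZT18, its highest and lowest young times by mean. In aged retinas it read 3.58, 3.65, 3.55 and 3.71 RPKM at ZT10 and 3.23, 3.3, 2.22 and 2.2 RPKM at ZT22. The young cycle was the wider of the fits, with 4.22 ± 0.29 falling to 2.45 ± 0.23 RPKM (SD, n = 4), while aged means stayed between 2.74 and 3.62 RPKM. The shared amplitude was 0.23 ± 0.04 (SE), a peak-to-trough fold of 1.38, with a peak at ZT8.4 and an adjusted p of 7.1e-06.

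Pars2 (ENSMUSG00000043572) had an amplitude of 0.24 ± 0.04 (SE), a peak at ZT6.8 and an adjusted p of 6.42e-05. At ZT10 its libraries read 3.62, 3.53, 3.86 and 6.58 RPKM in young and 3.76, 3.63, 3.7 and 3.53 RPKM in aged. At ZT18 they read 3.00, 2.58, 2.67 and 2.28 RPKM in young and 2.98, 2.54 and 2.85 RPKM in aged. Every ZT10 library was above every ZT18 library, and the highest, 6.58 RPKM, was young ZT10 replicate 4. Without both libraries that stood apart the amplitude of Pars2 was again 0.24.

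Rars2 (ENSMUSG00000028292), the arginine enzyme, read 8.86, 11.5, 9.33 and 10.3 RPKM at young ZT6 and 7.31, 8.33, 7.92 and 7.58 RPKM at young ZT22. In aged retinas it read 9.95, 9.41, 10.6 and 9.87 RPKM at ZT10 and 9.04, 8.34 and 7.73 RPKM at ZT18. The day groups were the higher ones at both ages, with a shared amplitude of 0.14 ± 0.02 (SE), a peak at ZT7.3 and an adjusted p of 3.47e-05. The other mitochondrial members called were Fars2 (amplitude 0.16, peak ZT8.2), Ears2 (0.16, ZT10.5) and Iars2 (0.12, ZT5.7), with Mars2 described below.

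Among cytosolic genes Lars (ENSMUSG00000024493), the leucine enzyme, which also takes part in sensing leucine for the mTORC1 growth pathway, had the smallest adjusted p of all members (3.47e-06). It read 8.93, 8.62, 8.61 and 9.3 RPKM at young ZT6 and 6.67, 5.84, 6.71 and 7.24 RPKM at young ZT14. The aged libraries read 9.27, 8.66, 9.61 and 9.08 RPKM at ZT6 and 6.53, 7.05, 5.79 and 7.06 RPKM at ZT14. All 8 libraries at ZT6 were above all 8 at ZT14. The amplitude was 0.19 ± 0.03 (SE), a peak-to-trough fold of 1.296, with the earliest peak of the called members at ZT4.8. Its mitochondrial counterpart Lars2 was not called (amplitude 0.060, adjusted p = 0.834). The other cytosolic members with light peaks were Rars (0.13, ZT6.5), Vars (0.13, ZT9.6), Farsb (0.12, ZT7.2) and Gars (0.11, ZT8.2). Farsa, the partner of Farsb, was not called (adjusted p = 0.422), and the difference between the subunits was not tested. Gars lost its shared rhythm call under median-ratio scaling (adjusted p = 0.133) and with RPE and lens covariates (0.062).

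The methionine enzymes ran in opposite phase. Mars1 (ENSMUSG00000040354), the cytosolic enzyme, read 26.9, 24.3, 27.6 and 23.7 RPKM at young ZT18 and 20.0, 21.3, 19.9 and 15.8 RPKM at young ZT10. In aged retinas it read 27.1, 22.4 and 23.8 RPKM at ZT18 and 19.9, 18.9, 17.7 and 21.5 RPKM at ZT6. The ZT18 libraries were the higher ones at both ages, without overlap. Its amplitude was 0.14 ± 0.02 (SE), with a peak at ZT19.0 ± 0.7 (SE, in h) and an adjusted p of 9.8e-05.

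Mars2 (ENSMUSG00000046994), the mitochondrial enzyme, read 2.12, 2.28, 2.24 and 2.14 RPKM at young ZT10 and 1.73, 1.44, 1.59 and 1.32 RPKM at young ZT18. In aged retinas it read 2.02, 2.4, 2.09 and 2.43 RPKM at ZT10 and 1.2, 1.64 and 1.62 RPKM at ZT18. Here the ZT10 libraries were the higher ones. The amplitude was 0.18 ± 0.03 (SE) and the peak ZT7.0 ± 0.7 (SE, in h), 12.0 h from that of Mars1, with an adjusted p of 0.000249. The ratio of Mars1 to Mars2 therefore moved over the day. It was 8.77 ± 0.96 (SD, n = 4) at young ZT10 and 16.9 ± 1.04 (SD, n = 4) at young ZT18, and 9.24 ± 0.78 (SD, n = 4) and 17.0 ± 4.94 (SD, n = 3) at the same times in aged.

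**Figure D5:**
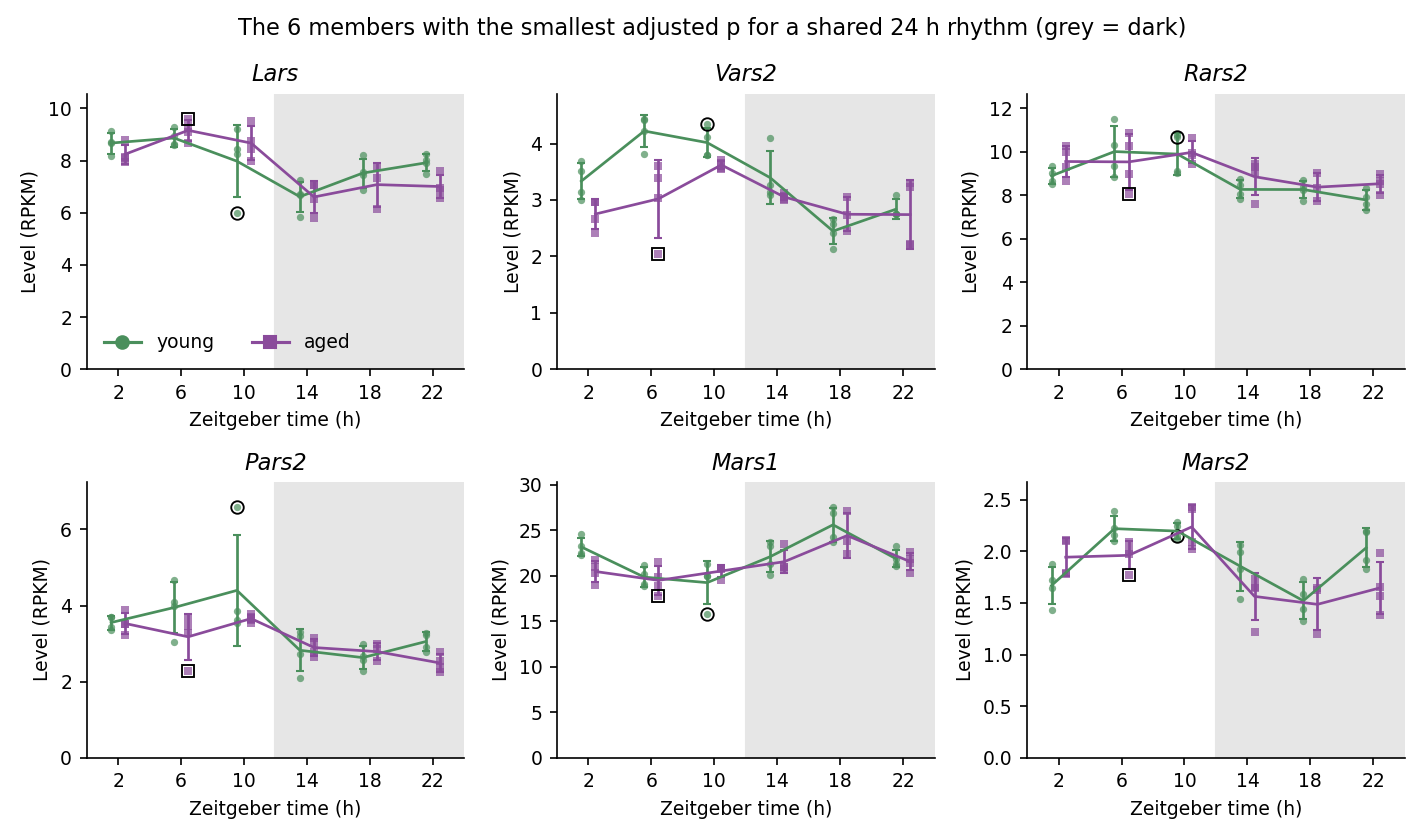
Level in RPKM by zeitgeber time for Lars, Vars2, Rars2, Pars2, Mars1 and Mars2, with libraries as points, group means joined and bars of SD; young in green circles, aged in purple squares, dark hours in grey and the libraries that stood apart ringed in black. Mars1 is highest at ZT18 at both ages, and the other 5 genes are highest at ZT6 or ZT10.

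Mars1 shares 68 exon bases, 1.99% of its exon length, with Ddit3 on the opposite strand in GENCODE M21. Ddit3, a stress-induced transcription factor named here for that overlap, was also rhythmic, with an amplitude of 0.19 and a peak at ZT17.7. Whether the counting used strand is not given in the sources used here, so reads in the shared stretch cannot be assigned, and their part in the Mars1 cycle was not tested. The Mars1 promoter is shown for the member that peaked in the dark, and the Vars2 promoter for a member of large amplitude that peaked in the light. Both come from RefSeq (GRCm38.p6) and cover 250 bases before the start, 5′ to 3′ on the gene's strand. Capitals mark a match to TTATGNAA, the letters searched for the D-box with any base allowed at N, 152 bases before the start of Vars2. The stretch found is TTATGGAA, and whether it works as a D-box was not tested. Vars2 was the member with that match among 27 (3.7%), beside 3.38% of all promoters, and none of the motifs searched was found in the Mars1 window.
Mars1, chr10:127311787-127312036, minus strand: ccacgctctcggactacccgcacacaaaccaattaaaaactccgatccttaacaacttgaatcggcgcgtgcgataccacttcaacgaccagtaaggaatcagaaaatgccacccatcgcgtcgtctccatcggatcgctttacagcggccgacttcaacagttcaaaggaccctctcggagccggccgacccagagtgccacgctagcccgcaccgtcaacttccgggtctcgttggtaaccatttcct
Vars2, chr17:35667593-35667842, minus strand: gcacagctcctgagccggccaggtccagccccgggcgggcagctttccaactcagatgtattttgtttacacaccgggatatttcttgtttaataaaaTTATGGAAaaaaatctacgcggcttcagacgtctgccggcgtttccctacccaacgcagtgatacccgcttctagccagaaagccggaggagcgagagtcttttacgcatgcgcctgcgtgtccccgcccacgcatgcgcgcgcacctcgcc

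Fitted by age, limma called 10 members in young, where 19.7% of all genes were called, and 10 in aged, where 14.4% were. Gars, Lars, Mars1 and Pars2 were called in both fits, where 7.56% of genes were. The Pars2 call in aged held in 27 of 47 fits that left out 1 library. Passing in the young fit and not in the aged fit were Aars2, Fars2, Farsb, Rars2, Tars2 and Vars2, and the reverse held for Dars, Ears2, Iars2, Mars2, Rars and Wars2. These lists do not show that the cycles differed. The difference between ages itself was called for 0 of 36 members, where 0.00653% of all genes were called, and limma voom also called 0. At an unadjusted p under 0.05 it held 9 members, where 7.75% of genes did. The smallest p belonged to Gars (limma adjusted p = 0.606). Its amplitude was 0.089 ± 0.02 (SE) with a peak at ZT5.0 ± 0.9 in young, and 0.17 ± 0.03 with a peak at ZT9.7 ± 0.7 in aged. Vars2, also among the 9, had amplitudes of 0.32 ± 0.04 in young and 0.16 ± 0.05 in aged. Without both libraries that stood apart, limma called 17 members in young (34% of all genes) and 20 in aged (27.3%).

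Markers of other tissues moved with time of day and with age. The 10 RPE markers summed to a median of 16.9 RPKM in young light libraries (range 7.90 to 41.0) and 46.5 RPKM in young dark libraries (20.3 to 106). In aged retinas the medians were 21.3 RPKM (9.75 to 62.7) in the light and 68.5 RPKM (32.9 to 195) in the dark. Of 9 tested RPE markers, 8 were rhythmic, and all 8 peaked in the dark. The 5 blood markers summed to a median of 315 RPKM in aged dark libraries and between 55.5 and 59.2 RPKM in the other 3 classes of library. The lens markers ran from 0.899 to 1989 RPKM over all libraries. For rhythm over both ages, the smallest limma adjusted p among the 10 tested was 0.114. In the separate fits 0 of the 10 were called in young and 1 in aged, beside 19.7% and 14.4% of all genes. The 8 microglia markers summed to a median of 17.96 RPKM in young (0.571 to 23.8) and 22.6 RPKM in aged libraries (7.56 to 37.9). With age, the lens crystallins Crygb, Crygc and Crygd fell, by 2.75, 2.67 and 2.59 on the log2 scale. Rgr of the RPE rose by 0.76, the blood marker Alas2 by 0.78 and the microglia marker Cd68 by 0.45. These were the markers of those lists called for age. With the mean RPE and lens levels as covariates, limma called 10 of 36 members rhythmic over both ages (20.5% of all genes), 2 in young (Lars and Vars2, 11% of genes) and 0 in aged (1.93%). In that fit no member was called for age (1.52% of genes higher and 1.01% lower). None of the ZT6 differences passed (0.45% of genes lower), while Gars still passed at ZT10 (adjusted p = 0.0208, 0.418% of genes higher), and none passed at ZT14 (0.0783%). The part of blood and microglia markers in these results was not tested.

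By structural class, 9 of 19 class I synthetases and 4 of 18 class II synthetases were rhythmic over both ages, beside 30.2% of all genes, with Eprs counted in each class for its separate activities. The difference between the classes was not tested. Of the 8 synthetases of the multisynthetase complex, 3 were rhythmic (Lars, Mars1 and Rars), and none passed for age, beside 30.2% of all genes rhythmic and 2.41% higher and 1.83% lower with age. Among the 3 scaffolds and 5 subunits of elongation factor 1, which delivers charged tRNA to the ribosome, 1 of 8 passed for age and 3 of 8 for rhythm. The shares of all genes were 2.41% higher and 1.83% lower with age, and 30.2% rhythmic. Aimp1, the scaffold that binds the arginine enzyme, rose in aged by 0.12 ± 0.04 (SE) on the log2 scale, from 6.75 to 7.38 RPKM, with an adjusted p of 0.0496. Eef1e1 (amplitude 0.21, peak ZT9.2), Aimp2 (0.15, ZT10.5) and Eef1d (0.10, ZT12.7) were rhythmic.

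Of 11 other genes of tRNA charging tested, 8 were rhythmic over both ages (30.2% of all genes), all 8 with peaks before ZT12 (67.8% of all rhythmic genes), and none passed for age. Prorsd1, Gatb and Gatc did not pass for rhythm. Qrsl1, a subunit of the enzyme that makes mitochondrial glutaminyl-tRNA in the place of a glutamine synthetase, had an amplitude of 0.27 ± 0.03 (SE) and a peak at ZT8.5. Trnt1, which adds the CCA end to tRNAs, had 0.23 ± 0.04 and ZT7.0. Pstk, the kinase of the selenocysteine pathway, had 0.16 ± 0.03 and ZT6.7, Mtfmt, which formylates the mitochondrial initiator tRNA, had 0.15 ± 0.04 and ZT7.0, and Tarsl2, a cytosolic threonine enzyme, had 0.10 ± 0.02 and ZT3.5. Of 20 known ATF4 targets outside the family, 9 were rhythmic, beside the same 30.2%, and 1 of those 9 peaked before ZT12, beside the same 67.8%. The difference between these lists was not tested. Ddit4, an inhibitor of mTORC1, had an amplitude of 0.39 ± 0.06 and a peak at ZT18.1, Phgdh, which begins serine synthesis, had 0.35 ± 0.08 and ZT18.0, and Slc3a2, a chain of amino acid transporters, had 0.18 ± 0.04 and ZT17.7. Aldh18a1, of proline synthesis, peaked at ZT17.0 and Sesn2, a leucine sensor, at ZT13.1. RPE and blood markers, which peaked in the same dark hours, were not separated from these genes.

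Wars, the tryptophan enzyme, is known to be induced by interferon. The 24 young libraries averaged 28.1 ± 2.34 RPKM (SD) and the 23 aged libraries 27.7 ± 3.99 RPKM (SD), and limma gave -0.033 ± 0.05 (SE) for aged minus young on the log2 scale (adjusted p = 0.827). Of 10 interferon genes, 2 rose with age, beside 2.41% of all genes: Gbp2 (0.38 ± 0.10) and Ifi27 (0.58 ± 0.11). Irf7 was the rhythmic gene of that list, with an amplitude of 1.36 ± 0.07 and a peak at ZT18.7, and Wars was not called rhythmic (adjusted p = 0.125).

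Exons of 13 of the 36 members overlap another annotated gene. The largest overlaps were those of Iars2 with Rab3gap2 (2034 bases, 22.9% of the member's exon length, opposite strand) and Aars with Exosc6 (1326 bases, 14.3%, same strand). Hars and Hars2, which lie head to head, share 195 bases. Values of these members may hold reads of the other gene.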

How the data were processed

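Per the labels' protocols, polyadenylated RNA was enriched on oligo-dT beads and cDNA was primed with random hexamers. Per the submitters' processing notes, the tools were HISAT2 2.2.1, Subread 2.0.6 and FastQC 0.23.4 and the genome build GRCm39; what each tool did is not stated there. No annotation release is given in the sources used here. Of the RPKM table that the authors deposited, with 1 column for every library, 47 libraries were used, and 1 column was set aside because its name fits none of the samples. Per the labels of the series, the authors' own tests were edgeR for expression and MetaCycle and CircaCompare for daily cycles; since RPKM values are not counts, limma 3.58.1 (R 4.3.3) and a cosinor were used here.

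Symbols came from GENCODE M21 (51933 of 57180 identifiers matched), which belongs to an earlier build, so it served for names, exon lengths and exon overlaps. The 15321 genes that reached 0.5 RPKM in 12 or more libraries entered the tests on log2(RPKM + 0.5), with eBayes trend and Benjamini-Hochberg adjustment over all of them; fold changes on this scale understate those of low genes. Age was tested with time as a factor, at each time from 12 group means, and as an interaction. Rhythm was tested by 24 h cosine and sine terms in young, in aged, over both ages, and as a difference between ages. Intervals are the estimate ± 1.96 SE. The fits were tested on simulated data.

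Because each value is a whole number of reads times a fixed step, reads were recovered within 0.01 of a whole number for 37323 of 37323 genes above 0 (32779 with annotated lengths, 4544 with a searched length, for which this is partly built in). Totals were 32.0 to 55.5 M reads.

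Library values are given for members called for age or at a single time, the 6 smallest adjusted p for rhythm over both ages, and the highest and lowest member. The times printed for a cycle were picked for their high and low means, so a lack of overlap between them is no test. From the other lists up to 5 genes per test are named, by smallest adjusted p; Ddit3 was added after its values were seen. The members, lists and tests were chosen with earlier results of these data known. Alternatives tried other scalings, pseudocounts and filters, a replicate block, robust variance moderation, tissue covariates, a fold minimum, another rhythm test and limma voom on recovered reads, and left out each library in turn or both that stood apart. Replicate numbers do not pair the mice. Some promoter windows are not reported here.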

Additional observations from a re-analysis of the deposited data

Results flagged for a closer look

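Among the members whose library values are given, 6 of 110 groups of 4 libraries held a library whose gap to its nearest neighbour was over Dixon's critical share of the group's range, and over all 36 members 24 of 396 groups did. Chance alone flags about 1 in 20. In 2 of the 6 the library was one that stood apart throughout: Pars2 at 6.58 RPKM in young ZT10 replicate 4, above the next library at 3.86 RPKM, and Tars2 at 1.70 RPKM in aged ZT6 replicate 3, below the next at 3.83 RPKM. Mars1 was at 19.6 RPKM in aged ZT10 replicate 3, below the other libraries at 20.8 to 20.9 RPKM, and at 23.5 RPKM in aged ZT14 replicate 3, above the others at 20.7 to 21.01 RPKM. Tars2 was at 4.89 RPKM in young ZT2 replicate 1, above the others at 3.99 to 4.05 RPKM. Vars2 was at 3.10 RPKM in young ZT22 replicate 2, above the others at 2.75 to 2.76 RPKM.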

How the results depend on the processing

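The counts of members called kept within 1.5 times of their reported value under both other pseudocounts, both other filters, robust variance moderation and limma voom on recovered reads. Under median-ratio scaling the counts were 2 higher with age, 1 at ZT6, 0 at ZT10, and 5 rhythmic in young and 5 in aged. Of all genes, 16.3% were rhythmic there in young and 12.4% in aged. Under quantile normalization the counts were 2 higher with age, 1 at ZT6, and 6 rhythmic in young and 5 in aged, beside 16.9% and 10.7% of all genes rhythmic. With both libraries that stood apart left out they were 2 higher and 2 lower with age, 1 at ZT6, 0 at ZT10 and 1 at ZT14. In that fit 17 were rhythmic in young, 20 in aged and 25 over both ages, beside 34%, 27.3% and 53.4% of all genes. With RPE and lens covariates the counts were 0 higher with age, 0 at ZT6, and 2 rhythmic in young and 0 in aged, beside 11% and 1.93% of all genes rhythmic. A fold minimum of 1.5 left 0 members higher with age, beside 0.49% of all genes in either direction. An F test over the 6 times left 3 rhythmic in aged, and the share of all genes in that test is not given here. The causes were not tested.

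Leaving out 1 library at a time gave 1 to 2 members higher and 0 to 1 lower with age. At single times, 0 to 9 were called in either direction at ZT6 and 0 to 1 at ZT10. For rhythm, 9 to 17 were called in young and 6 to 20 in aged. The value of 17 came without young ZT10 replicate 4, where 34% of all genes were rhythmic in young. That of 20 came without aged ZT6 replicate 3, where 27.3% were rhythmic in aged. That of 6 came without aged ZT10 replicate 2, aged ZT14 replicate 2 or aged ZT22 replicate 4. The shares of all genes in these last 3 fits are not given here. Some age differences, none of them called, changed sign, and all but that of Sars2 (-0.093) were near 0 with all libraries in. Without both libraries these were Eprs (-0.014), Farsb (-0.011), Iars2 (-0.016), Sars2 (0.0043) and Yars2 (-0.022). With covariates they were Farsb (-0.0021) and Yars2 (-0.0050), under median-ratio scaling Iars (0.0069) and Nars (0.0030), and under quantile normalization Iars (0.011). Leaving out 1 library gave ranges of -0.0094 to 0.035 for Eprs, -0.0047 to 0.022 for Farsb, -0.029 to 0.0057 for Iars, -0.028 to 0.032 for Iars2, -0.032 to 0.0064 for Nars and -0.042 to 0.030 for Yars2.

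With the replicate block the limma adjusted p of Gars for age was 0.0207, and 10, 11 and 14 members were rhythmic in young, in aged and over both ages. The shares of all genes in that fit are not given here, so these counts are not set against them. Libraries with the same number in different groups had a median correlation of 0.030 (other numbers -0.0094), with 90 of 253 pairs over 0.1, and 17 of 47 libraries correlated best with their own number.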
